A study of Homo sapiens with 2 samples.

Results

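The transcripts described here encode the mitochondrial carriers of the SLC25 family, and the question was where they were edited when an APOBEC1 fusion was directed to RBFOX2. Members were the loci of the deposited isoform models whose largest exonic overlap on the same strand was with a protein-coding gene named SLC25A followed by a number. There were 39 such loci, of which 36 (35 gene symbols) had a listed C-to-U position in at least 1 library, out of 12178 loci listed in the whole series. SLC25A30 and a second locus each of SLC25A3 and SLC25A53 had isoform models but no listed position.

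The samples were 2 libraries of HEK293T cells, a human embryonic kidney line, 1 per group. The labels give the tissue as kidney and the cell line as HEK293XT, with HEK293T in the titles. Per the methods of the study, the cells were fixed (with methanol or paraformaldehyde, not stated for these libraries) and received a recombinant APOBEC1-nanobody fusion, in which the deaminase turns cytosine into uracil in RNA and the nanobody binds rabbit IgG. In the RBFOX2 library the fusion followed an antibody against RBFOX2, whereas the enzyme-only library was made without that antibody. A library with an antibody of no target was not analysed here. Full-length cDNA was sequenced with PacBio long reads.

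SLC25 carriers are small proteins of repeated pairs of membrane-spanning helices that exchange metabolites between the cytosol and the mitochondrial matrix. Most sit in the inner membrane, and they supply the matrix with ADP, phosphate, cofactors, amino acids and carboxylates and return ATP and biosynthetic precursors. They are encoded in the nucleus, so their mRNAs pass through splicing and cytoplasmic translation before import of the protein. RBFOX2 is a splicing regulator that binds UGCAUG and is also found on 3′UTRs.

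With 1 library per group, every comparison is between these libraries and has no replicate check, and no test was possible. Ranges in parentheses are exact Clopper-Pearson 95% intervals. They describe only the error of counting: molecules were not tagged individually, and sites of 1 gene can lie on the same read. The tables listed 121930 positions in the RBFOX2 library against 103684 in the enzyme-only library, over 2431345 and 2233600 reads of genes with a site. Unless stated otherwise, a site is a position listed in only 1 of the libraries, of which there were 109357 and 91111 (ratio 1.20). Shares of converted reads are of the gene's reads, since reads at the position itself are not given. Only positions with over 0.002 of the gene's reads converted are listed, so the fewest converted reads that can be listed rises with depth, from 1 read in genes under 500 reads to 7 in the deepest member. Where this minimum differed between the libraries, counts are also given at the common minimum, the higher of the 2 values, for which the library totals stood at a ratio of 1.27. Of the markers of the line, KRT18, NEFM and INA were listed in both libraries, VIM in the RBFOX2 library only, and PAX2 and KRT8 in the enzyme-only library only. Of markers of mature kidney, UMOD, NPHS1, AQP2 and SLC34A1 were listed in neither, and LRP2 was listed in both at 8 and 12 reads.

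SLC25A loci carried 388 sites in the RBFOX2 library against 321 in the enzyme-only library. The ratio of 1.21 (1.04 to 1.41) was close to the 1.20 of all other genes. Of these sites, 27 and 18 lay in PMF1, a neighbour of SLC25A44 in the same locus. In SLC25A exons only the ratio was 1.18 (1.01 to 1.38). Over all sites it was 1.53 (1.31 to 1.80) at the common read minimum. Leaving out SLC25A10, a locus with far more enzyme-only sites, gave 1.50 (1.27 to 1.76). Of the 36 loci, 34 were listed in the RBFOX2 library, 32 in the enzyme-only library and 30 in both. SLC25A3, SLC25A15, SLC25A40 and SLC25A53 were listed in the RBFOX2 library only, and SLC25A16 and a second SLC25A6 locus in the enzyme-only library only. Among the 30 members listed in both, 19 had more sites in the RBFOX2 library, 6 had fewer and 5 had equal numbers. More sites in the RBFOX2 library were found in 54.9% of the 8203 loci listed in both.

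**Figure D1:**
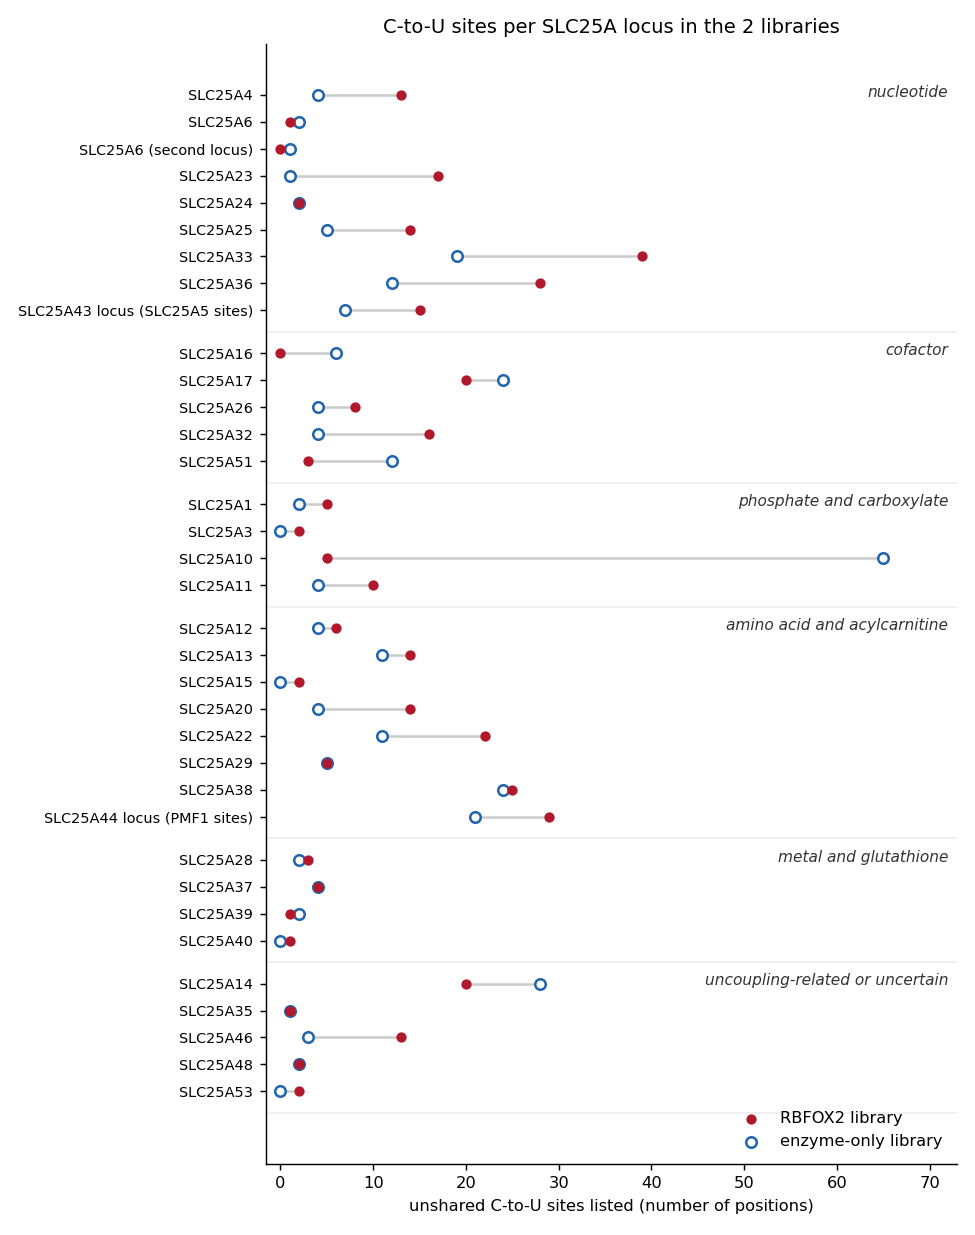
Number of C-to-U positions listed in only 1 library (horizontal axis) for the SLC25A loci reported here, by the substrate class of the carrier, in the RBFOX2 library (filled red) and the enzyme-only library (open blue). SLC25A33 had the most sites in the RBFOX2 library (39), and SLC25A10 stands apart with 65 sites in the enzyme-only library and 5 in the RBFOX2 library.

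The members were read slightly more deeply in the RBFOX2 library. Over the 30 members in both, gene reads summed to 11569 in the RBFOX2 library against 10088 in the enzyme-only library, a ratio of 1.15 (1.12 to 1.18), with 1.07 over all genes. The median ratio of gene reads per locus was 1.12 for members and 1.10 for all genes. In a bulk library, more cells holding an RNA and more of that RNA per cell cannot be told apart. Reads of a member ranged from 1 for SLC25A53 to 3089 for the SLC25A43 locus.

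Depth also splits the family. For the 23 members under 500 reads in both libraries, where a single converted read can be listed, there were 331 sites against 228, a ratio of 1.45 (1.22 to 1.73). The same ratio over all 7287 such loci was 1.24. For the 6 members with at least 500 reads in both, there were 45 sites against 16 at the common minimum, a ratio of 2.81 (1.56 to 5.33). Over all 789 such loci it was 2.03. Among these 6, SLC25A1, SLC25A4, SLC25A11 and the SLC25A43 locus had more sites in the RBFOX2 library, 4 of 6, with 69.1% of the 789 doing so. SLC25A10, with 534 and 479 reads, was the only member on different sides of 500 reads in the libraries.

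Of the 12 members with at least 20 sites over both libraries, 1 was over 2-fold higher in the RBFOX2 library after scaling by the library totals and 1 was over 2-fold lower. The background was 16.8% higher and 14.6% lower among 3604 loci. The median log2 ratio of the 12 was 0.13, beside 0.08 over all of those loci. The higher member was SLC25A32, the carrier of folate and FAD. At 110 and 103 gene reads it had 16 sites with the antibody and 4 without, a log2 ratio of 1.61 (0.10 to 3.78). Its RBFOX2-library sites lay mostly beyond the stop codon, 11 of 16 in the 3′UTR, and 14 of 16 followed an A or a U. Of its 4 enzyme-only sites, 3 lay in the 3′UTR and 2 followed an A or a U. The other 10 members had log2 ratios from -0.74 (SLC25A14) to 0.93 (SLC25A36), and the intervals of all 10 included 0.

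The lower member was SLC25A10, the dicarboxylate carrier. It had 5 sites in the RBFOX2 library against 65 in the enzyme-only library, a log2 ratio of -3.84 (-5.63 to -2.67). Its reads put the listing minimum at 2 converted reads in the RBFOX2 library but at 1 in the enzyme-only table. At 2 converted reads in both, it had 5 sites against 2, and the log2 ratio was 0.79. The difference in its site numbers therefore rested on positions of 1 converted read that could be listed in only 1 of the tables.

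**Figure D2:**
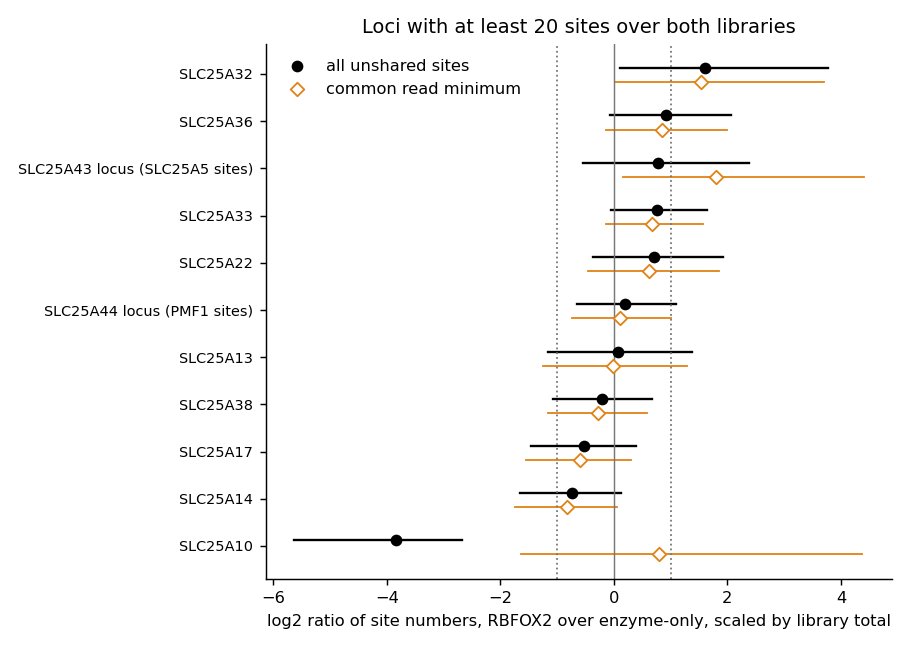
Log2 ratio of site numbers, RBFOX2 over enzyme-only and scaled by library totals, for members with at least 20 sites, with 95% counting intervals as bars and dotted lines at 2-fold. Black points use all sites and orange diamonds the common read minimum, at which SLC25A10 moves from -3.84 to 0.79 and the SLC25A43 locus from 0.78 to 1.80.

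Grouped by what they carry, and counting each site under the gene whose exon held it, the nucleotide carriers had the highest ratio over all sites. These exchange ADP for ATP, import ATP-Mg or carry pyrimidine nucleotides. They held 128 sites in the RBFOX2 library against 52 in the enzyme-only library, a ratio of 2.46 (1.77 to 3.47). Of the 8 genes, 6 had more sites in the RBFOX2 library and 1 had fewer. More were found in 54.9% of all 8203 loci listed in both libraries. The gene reads of the nucleotide carriers' loci stood at a ratio of 1.10. The amino acid and acylcarnitine carriers held 89 against 62 (1.44, 1.03 to 2.02), with 6 of 8 genes higher and 1 lower. The cofactor carriers held 70 against 75 (0.93, 0.66 to 1.31), with 3 genes higher and 3 lower. Carriers of phosphate and carboxylates held 22 against 70, which became 22 against 8 (2.75, 1.18 to 7.14) at the common minimum, where the nucleotide carriers stood at 2.67. Metal and glutathione carriers held 9 against 7, and the uncoupling-related or uncertain members 37 against 34. The groups were formed with the earlier results of these data known and were compared as values only.

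**Figure D3:**
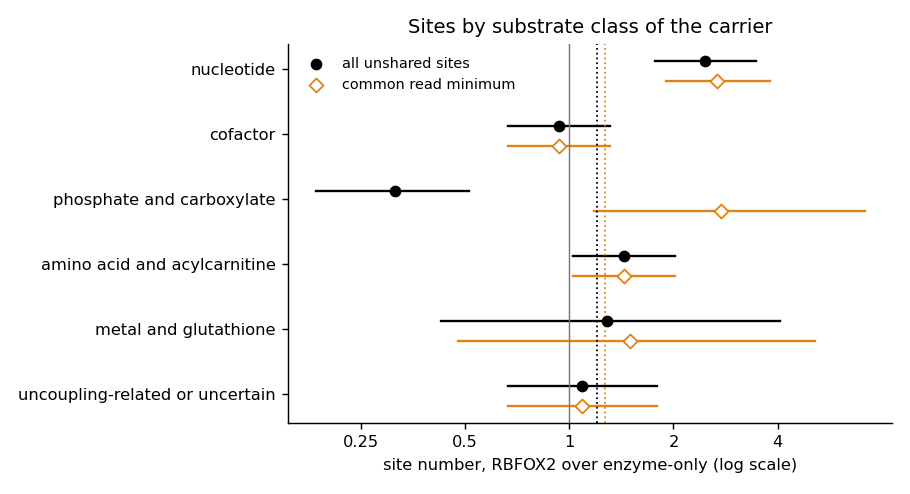
Ratio of site numbers, RBFOX2 over enzyme-only on a log scale, for the carriers of each substrate class, with 95% counting intervals, for all sites (black) and at the common read minimum (orange). Dotted lines mark the ratio of the library totals at each setting (1.20 and 1.27). The nucleotide carriers lie at 2.46 and 2.67, and the phosphate and carboxylate carriers move from 0.31 to 2.75.

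The deepest locus carries the name SLC25A43 but its sites belong to SLC25A5, the ADP/ATP translocase of proliferating cells (ANT2). Both genes lie on the plus strand of chromosome X, SLC25A43 at chrX:119399336-119454478 and SLC25A5 at chrX:119468422-119471396 (hg38). Of the 17 isoform models of the locus, 13 touched exons of SLC25A5 only, 3 of SLC25A43 only and 1 of both. All 15 sites of the RBFOX2 library and all 7 of the enzyme-only library lay in SLC25A5 exons, at 3089 and 2794 reads of the locus. The RBFOX2 sites were concentrated at the 3′ end of the transcript, 9 of 15 in the 3′UTR and 14 of 15 after an A or a U in the genome. The other, 119470901, is the first base of an exon, where the genome gives the intron's G, and its codon change in the spliced mRNA (ACU to AUU) puts it after an A. In the enzyme-only library 2 of 7 lay in the 3′UTR and 6 of 7 followed an A or a U. The listing minimum was 7 converted reads against 6, and at 7 in both the counts were 15 against 3, a log2 ratio of 1.80.

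The position with the most converted reads of any member in the RBFOX2 library was in SLC25A5, at 119470996 on chromosome X, in the coding sequence, 59 nt before the last coding base. It was converted in 24 of 3089 reads (0.777%, 0.498 to 1.15) in the RBFOX2 library and in 6 of 2794 (0.215%, 0.0788 to 0.467) in the enzyme-only library. These intervals do not overlap, but the position was picked for its count in the RBFOX2 library, which favours that library in the comparison. The next, 119470998, had 18 converted reads (0.583%) in the RBFOX2 library and was not listed in the enzyme-only library, where 6 would have been enough. It is a synonymous position. A UGCAUG lies just upstream, at chrX:119470980-119470985, so the 2 positions stand 11 and 13 nt beyond its last base. The shared position 119471066 in the 3′UTR had 12 and 7 converted reads, and the shared 119470905 had 7 in each. Over all listed positions of SLC25A5, 176 conversions were counted at 18 positions in the RBFOX2 library against 67 at 10 in the enzyme-only library. The sequence that holds this motif and its edited positions is shown first, with those of the coding motifs of SLC25A46 and SLC25A33, described further on. The reference strand of the mRNA is printed with T for U, and the capitals mark UGCAUG and the cytosines listed in the RBFOX2 library.
SLC25A5 (chrX:119470969-119470998, hg38, plus strand, coding): tttttCaagggTGCATGgtccaatgttCtC
SLC25A46 (chr5:110761713-110761742, hg38, plus strand, coding): CaCaCTGCATGcagctgttttacagattaC
SLC25A33 (chr1:9570258-9570287, hg38, plus strand, coding): ggctgtataCttTGCATGttaCtccaaagc

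**Figure D4:**
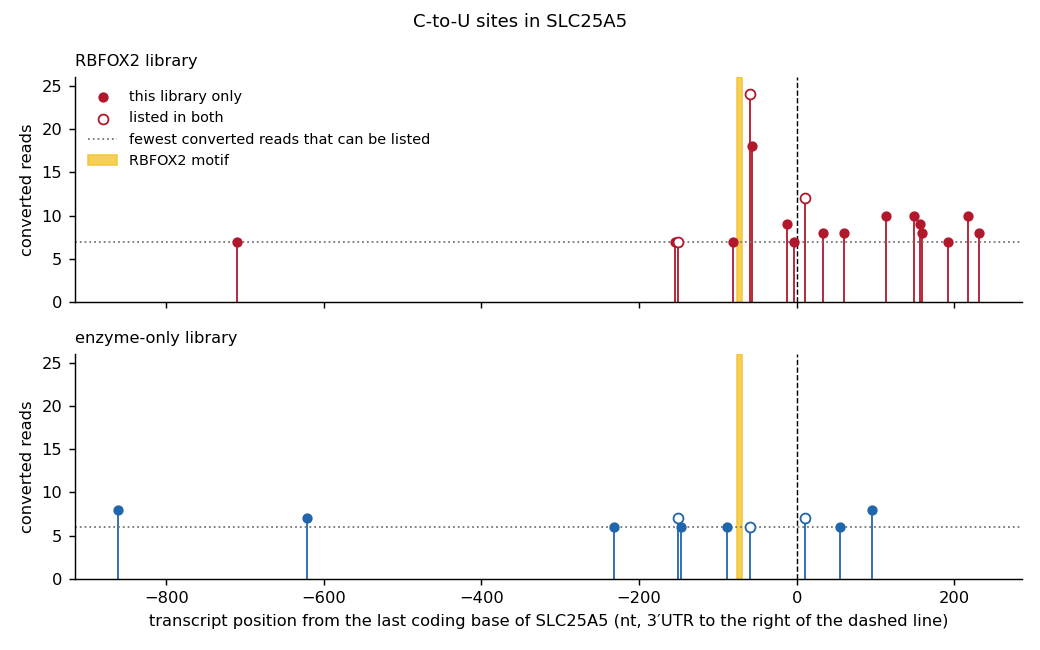
Converted reads at each listed C-to-U position of SLC25A5 (vertical axis) by transcript distance from its last coding base (horizontal axis, nt), in the RBFOX2 library (top) and the enzyme-only library (bottom). Filled points were listed in that library only and open points in both, the dotted line is the fewest converted reads that can be listed (7 and 6), and the yellow band is UGCAUG. The highest RBFOX2-library points, 24 and 18 converted reads, stand just 3′ of the motif, and 9 of the 15 filled points in the top panel lie in the 3′UTR.

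SLC25A4, the ADP/ATP translocase of heart and muscle (ANT1), had 13 sites in the RBFOX2 library against 4 in the enzyme-only library. It had 671 and 566 reads, and the listing minimum was 2 converted reads for each. The 13 were 9 coding and 4 3′UTR positions, and 12 followed an A or a U. The highest was in the 3′UTR at chromosome 4 position 185146993, 25 nt past the last coding base, with 6 of 671 reads converted (0.894%, 0.329 to 1.94). The next was a synonymous position, 185146842, with 5 reads (0.745%, 0.242 to 1.73). Neither was listed in the enzyme-only library, whose highest SLC25A4 position had 3 of 566 reads. The exons of SLC25A4 hold 1 UGCAUG, with no site within 50 nt. SLC25A6, the widely expressed translocase (ANT3), had 1 site against 2 at 636 and 652 reads of its locus on chromosome X. Its second locus, on the chromosome Y copy of the gene, was listed in the enzyme-only library only, at 1274 reads. The site of that locus had 3 converted reads and was given at a chromosome X position, 1386491. The counts of the X locus are therefore not those of the whole gene. The 3 translocases are near copies of each other and have pseudogenes, and how reads were divided among them was not tested. The sequences around the most converted RBFOX2-library positions of SLC25A4, SLC25A3 and SLC25A14 show the base that precedes them, with capitals on the edited cytosine and its 5′ neighbour.
SLC25A4 (chr4:185146979-185147008, hg38, plus strand, 3′UTR): aaaacacaagttcACagatttacagtgaac
SLC25A4 (chr4:185146828-185146857, hg38, plus strand, coding): acggggacagttgACtgctggaggaagatt
SLC25A3 (chr12:98601442-98601471, hg38, plus strand, coding): tccgtgaaggtctACttcagacttcctcgc
SLC25A14 (chrX:130365589-130365618, hg38, plus strand, coding): tgatgtggttcgaACtcgcatgatgaacca

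Among the calcium-regulated ATP-Mg carriers, SLC25A23 had 17 sites in the RBFOX2 library against 1 in the enzyme-only library, at 113 gene reads in each. Its log2 ratio was 3.28 (1.15 to 9.21), but its 18 sites left it just under the limit of 20. Each of the 17 rested on 1 converted read, and 14 lay in the 3′UTR. SLC25A25 had 14 against 5 at 80 and 63 reads, and SLC25A24 had 2 in each at 39 and 33 reads. Of the pyrimidine nucleotide carriers, SLC25A33 had 39 against 19 at 286 and 252 reads (log2 0.76, -0.05 to 1.65), and SLC25A36 had 28 against 12 at 317 and 292 reads (0.93, -0.06 to 2.07). In both carriers most sites were coding, 27 of 39 and 23 of 28 in the RBFOX2 library. For SLC25A36 this rested on the order of annotation, since 18 of the 28 lay in a 3′UTR when 3′UTR annotation was counted before coding sequence, and for SLC25A33 the 3′UTR count stayed at 9 of 39. The edited positions made up 8.69% of the exonic cytosines of SLC25A33 in the RBFOX2 library against 4.23% in the enzyme-only library. The former was the highest share of any member in the RBFOX2 library. This rank depends on depth and on the listing minimum, which was 1 converted read for SLC25A33 and 7 in the deepest member.

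Apart from SLC25A10, described above, the phosphate and carboxylate carriers had 10 sites or fewer in either library. SLC25A3, the phosphate carrier, had 1147 reads in the RBFOX2 library and was not listed in the enzyme-only library. Its sites were a coding position at 98601456 on chromosome 12 with 4 converted reads (0.349%, 0.0951 to 0.890) and a 3′UTR position at 98601550 with 3. All 13 isoform models of the gene hold both positions. Of the alternative internal exons in these models, the one at chr12:98595433-98595661 was used in 2 isoforms and the one at chr12:98595727-98595848 in 3, neither with a site. SLC25A11, the oxoglutarate/malate carrier, had 10 against 4 at 827 and 668 reads. SLC25A1, the citrate carrier, had 5 against 2 at 836 and 734 reads. No site of SLC25A1 or SLC25A11 had more than 3 converted reads.

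In the amino acid group, SLC25A22, a mitochondrial glutamate carrier, had 22 against 11 at 144 and 132 reads (log2 0.70, -0.37 to 1.93), and SLC25A20, the carnitine/acylcarnitine carrier, had 14 against 4 at 70 and 47 reads. SLC25A13, the aspartate/glutamate carrier citrin, had 14 against 11 at 200 and 136 reads (log2 0.07, -1.16 to 1.37), and SLC25A38, the glycine carrier of haem synthesis, 25 against 24 at 195 and 177 reads (-0.21, -1.07 to 0.67). The 3′UTR of SLC25A13 held 7 of its 14 RBFOX2-library sites (23.0% to 77.0%) and 0 of its 11 enzyme-only sites (up to 28.5%), intervals that overlap. When 3′UTR annotation was counted before coding sequence, the RBFOX2-library count was 8 of 14 (28.9% to 82.3%). The enzyme-only count stayed at 0 of 11, and those intervals narrowly did not overlap. The 3′UTR shares of SLC25A22 and SLC25A38 went the other way, with overlapping intervals. They were 14 of 22 against 10 of 11 for SLC25A22 and 6 of 25 against 10 of 24 for SLC25A38. An A or a U preceded 7 of 22 against 7 of 11 sites of SLC25A22 and 16 of 25 against 12 of 24 of SLC25A38. The locus named SLC25A44, a branched-chain amino acid carrier, had 29 against 21 at 486 and 456 reads (log2 0.19, -0.66 to 1.09), but 27 and 18 of these lay in PMF1, a neighbouring gene for a kinetochore protein, and 1 and 3 in SLC25A44 itself. Of its 15 isoform models, 9 touched PMF1 only and 2 SLC25A44 only.

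The cofactor carriers went both ways. SLC25A17, the peroxisomal carrier of adenine nucleotides and coenzyme A, had 20 against 24 at 197 and 188 reads (log2 -0.52, -1.46 to 0.39). The locus of SLC25A51, the NAD+ carrier, had 3 against 12 at 46 and 38 reads, a log2 ratio of -2.10 (-4.73 to -0.37). None of the 3 RBFOX2-library sites lay in an annotated exon, and 11 of the 12 enzyme-only sites lay in a non-coding exon. SLC25A16 had 6 sites at 42 reads in the enzyme-only library and was not listed in the RBFOX2 library. SLC25A26, the S-adenosylmethionine carrier, had 8 against 4. Of the glutathione and iron carriers, SLC25A39, with 1592 and 1208 reads, had 1 site of 5 converted reads (0.314%) against 2 sites of 3 and 4, and SLC25A28 and SLC25A37, the mitoferrins, had 3 against 2 and 4 against 4.

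SLC25A14, an uncoupling protein-like carrier (UCP5), had 107 and 103 reads, with 20 sites in the RBFOX2 library against 28 in the enzyme-only library (log2 -0.74, -1.65 to 0.13). The shares of those sites in the 3′UTR and after an A or a U had counting intervals that did not overlap between the libraries. These intervals take each position as independent, and whether neighbouring positions were converted on the same reads is not known. No allowance was made for the number of members looked at. In the RBFOX2 library 10 of 20 lay in the 3′UTR (27.2% to 72.8%) and 17 of 20 followed an A or a U (85.0%, 62.1 to 96.8). In the enzyme-only library 1 of 28 lay in the 3′UTR (3.57%, 0.0904 to 18.3), 24 were coding, and 9 of 28 followed an A or a U (32.1%, 15.9 to 52.4). The 3′UTR counts were 10 and 1 also when 3′UTR annotation was counted before coding sequence. SLC25A14 also had the most shared positions of any member, 10. At 1 of these, 130365603 on chromosome X, 6 of 107 reads were converted in the RBFOX2 library (5.61%, 2.09 to 11.8) and 1 of 103 in the enzyme-only library (0.971%, 0.0246 to 5.29), intervals that overlap. It is a missense position after an A and is printed above.

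Across the family, sites of the RBFOX2 library lay in 3′UTRs more often than those of the enzyme-only library when overlapping annotation was counted as coding sequence first. The shares were 44.6% (39.6 to 49.7) of 388 and 29.9% (24.9 to 35.2) of 321, with 40.8% and 34.8% in all other genes. Weighting every exonic cytosine of the members by the sites they held gave expected shares of 32.2% and 26.2%. Coding sequence held 194 of 388 (44.9% to 55.1%) and 59.2% (53.6 to 64.6), against 37.6% and 38.4% expected. Without SLC25A10 the enzyme-only 3′UTR share was 32.0%, and without SLC25A14 it was 32.4%. With 3′UTR counted first the shares were 61.1% and 57.3%, with overlapping intervals (56.0 to 66.0 and 51.7 to 62.8).

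APOBEC1 prefers cytosines that follow an A or a U. The preceding base was read from the genome, and 2 RBFOX2-library sites and 0 enzyme-only sites were the first base of an exon after a splice junction. An A or a U preceded 73.5% (68.8 to 77.8) of the members' exonic sites in the RBFOX2 library and 58.0% (52.4 to 63.5) in the enzyme-only library. The exonic cytosines of the same genes gave 44.8% and 43.6%. All other genes showed 71.7% and 63.9%. Sites of 2 or more converted reads made up 19.1% (15.3 to 23.3) with the antibody and 12.5% (9.05 to 16.6) without it, with 14.3% and 9.44% in all other genes. This share follows the listing minimum, and among members of at most 500 reads in both libraries it was 6.65% (4.21 to 9.89) and 7.02% (4.06 to 11.1).

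**Figure D5:**
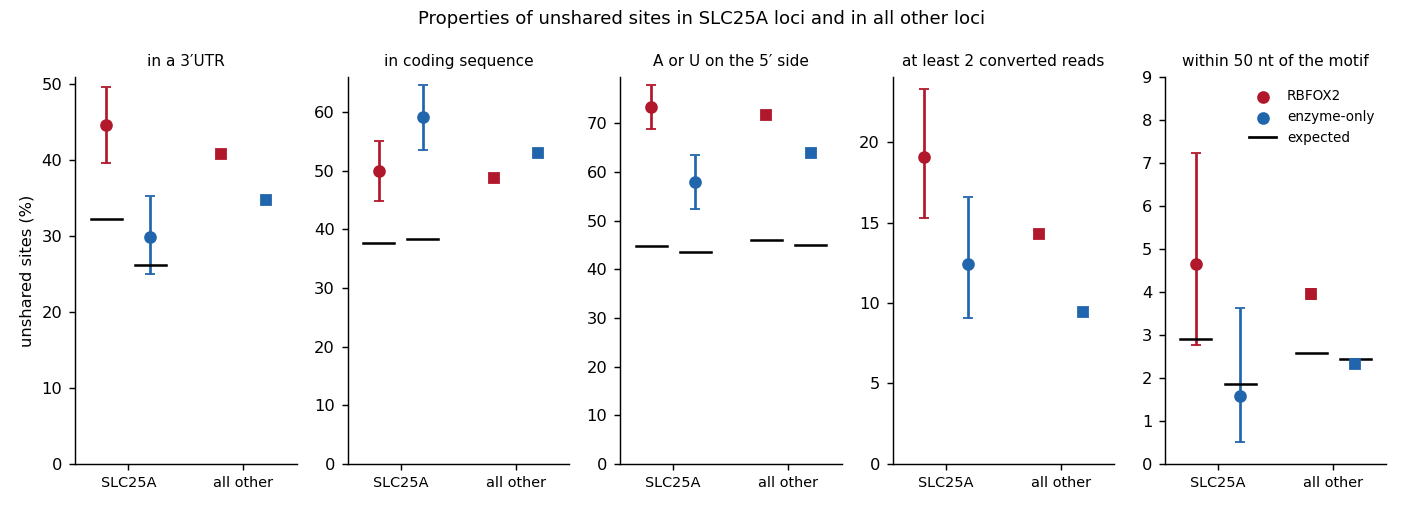
Shares of unshared sites (vertical axis, %) in SLC25A loci (circles) and all other loci (squares) in the RBFOX2 library (red) and the enzyme-only library (blue), with 95% counting intervals. Black bars give the share expected from the exonic cytosines of the same genes, where it was computed. The 3′UTR share of SLC25A sites is 44.6% and 29.9%, and the share after an A or a U is 73.5% and 58.0%.

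The shares of coding sites that would change the protein had overlapping intervals in the libraries. In the RBFOX2 library 93 of 188 coding sites with a called consequence would change an amino acid or make a stop codon (49.5%, 42.1 to 56.8), where 57.1% of the coding cytosines of the same genes would. In the enzyme-only library the figures were 90 of 171 (52.6%, 44.9 to 60.3) and 55.6%. Stop codons were made at 8 sites in each library, 4.26% (1.85 to 8.21) and 4.68% (2.04 to 9.01), with 7.43% and 7.57% expected. SLC25A14 had the only stop-making sites with at least 2 converted reads, 1 in each library and at different positions. These were a CAA to UAA change at 130358709 in 2 of 107 RBFOX2-library reads and a CAG to UAG change at 130364646 in 2 of 103 enzyme-only reads.

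UGCAUG occurred 31 times in the exons of 20 members, and 10 of these occurrences had an RBFOX2-library site within 50 nt. Only 3 had an enzyme-only site within 50 nt, those of SLC25A33 and SLC25A5 among them, and all 3 also had one of the RBFOX2 library. These 3 motifs held all 5 enzyme-only sites near UGCAUG. By member, 10 of 34 with exonic sites had an RBFOX2-library site within 50 nt of UGCAUG, beside 19.9% of all such loci, and 3 of 31 had an enzyme-only site there, beside 14.2%. By site, 18 of 388 were near the motif in the RBFOX2 library (4.64%, 2.77 to 7.23), 1.60 (0.95 to 2.49) times the 2.91% expected from the exonic cytosines of the same genes. In the enzyme-only library 5 of 319 were (1.57%, 0.511 to 3.62), 0.84 (0.27 to 1.95) times the expected share. Both intervals include 1, so neither library's sites were distinguishable from the exonic cytosines at this number of sites. The values in all other genes were 1.53 and 0.95. For the shorter motif GCAUG, which includes every UGCAUG, the RBFOX2-library value for members was 1.52 (1.16 to 1.93) and the enzyme-only value 0.96 (0.63 to 1.38), with 1.13 and 0.93 in all other genes.

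The motif with the most sites around it was in the coding sequence of SLC25A46, an outer mitochondrial membrane member of the family. It lies at chr5:110761718-110761723, and positions 110761713, 110761715, 110761717 and 110761742 were each converted in 1 of 96 reads (1.04%, 0.0264 to 5.67) in the RBFOX2 library. The first 3 lie in a run of CA repeats directly before the motif and the last 19 nt beyond it. None was listed in the enzyme-only library at 83 reads, where 1 converted read is enough. Both read numbers are of the gene, and 5 of its 7 isoform models hold these 4 positions. These 4 are 4 of the 18 family sites near UGCAUG, and without SLC25A46 the enrichment was 1.27 (0.70 to 2.11). All 13 RBFOX2-library sites of SLC25A46 followed an A or a U, and the enzyme-only library had 3 sites there. The table does not say whether the 4 conversions were on the same read.

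SLC25A33 had a coding UGCAUG at chr1:9570270-9570275 with 3 RBFOX2-library sites within 50 nt, at 9570267, 9570312 and 9570324, and 1 enzyme-only site, at 9570282. A further position in the printed window, 9570279, was listed in both libraries. In the 3′UTRs of SLC25A12, SLC25A13, SLC25A20, SLC25A22 and SLC25A23, 1 or 2 RBFOX2-library sites lay near a motif and none of the enzyme-only library, each of 1 converted read. The SLC25A1 site near the motif, with 2 converted reads, lay 48 nt before a UGCAUG beyond the exons of its models. The only sites near UGCAUG that rested on more than 2 converted reads were those of SLC25A5. The listing minimum of 7 and 6 converted reads at that locus sets this. As shares of gene reads, its RBFOX2-library sites near the motif stood at 0.227% and 0.583%, below the 1.04% of each such SLC25A46 site.

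Positions listed in both libraries numbered 48 among the members, 11.0% (8.23 to 14.3) of the RBFOX2-library positions and 13.0% (9.75 to 16.9) of the enzyme-only positions. All genes gave 10.3% and 12.1%. Of the 48, 32 had 1 converted read in each library. Whether such positions are genomic variants was not tested.

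Proteins that insert SLC25 carriers or share the membranes with them were described from a list of 30 genes, of which 25 had a listed locus. The list holds translocases, porins, pyruvate carriers, sideroflexins and the calcium uniporter. It also holds UCP2, MTCH1 and MTCH2, carrier-family proteins that were not members because their symbols do not begin with SLC25A. UCP2 had 42 sites against 20 (log2 0.79) and MTCH2 5 against 5. Of the 15 with at least 20 sites, 2 were over 2-fold higher in the RBFOX2 library and 1 was lower, with 16.8% and 14.6% of all loci called. MCU, the calcium uniporter pore, had 18 sites against 6 (log2 1.25) and MTCH1, an outer membrane relative of the carriers, 20 against 6 (1.39). MPC1, of the pyruvate carrier, had 7 against 25 (-2.03) at 512 and 422 reads, which became 7 against 1 at the common minimum. Other solute carriers had 3 higher and 2 lower of 39, below the same 16.8% and 14.6%.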

How the data were processed

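Members and gene lists were chosen with earlier results of these data known. Per the labels and methods, long reads were aligned to hg38, and C-to-U edits were called with custom scripts; they name IsoQuant for isoform counts, and do not say whether it made the deposited isoform models. The methods also remove positions shared by all samples and annotated variants. Shared positions are still in the tables, and the removal of annotated variants was not repeated. For each C-to-U position the authors deposited counts of converted reads and of reads of the gene (not of the position), their ratio as an edit fraction, and a confidence score, which was not used. All listed fractions exceed 0.002.

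Isoform loci were assigned to GENCODE 44 protein-coding genes by exonic overlap (bedtools 2.31.1, Python 3.11.15, pandas 2.3.3). Positions listed in both libraries were set aside. Log2 ratios of single loci used a pseudocount of 0.5 and library totals, and a member with at least 20 sites was called past 2-fold. Ratios over several loci were plain quotients of site numbers, not scaled by library totals. Coding sequence preceded 3′UTR where annotations overlapped. UGCAUG and GCAUG were searched on the transcribed strand of the genome within 50 nt of each site, and expected shares average the exonic cytosines of a gene, once for every site it held. Binomial intervals were exact (scipy 1.17.1). The 2-fold call and the interval of the log2 ratio were tested on simulated site counts, without a listing minimum. The other steps were not simulated. Named in full were members with at least 20 sites, the 5 with the most reads, those with a site of at least 2 converted reads near UGCAUG and those with such a stop-making site; others were named after their values were seen. A single member is counted in the totals but not reported here by name or in the plots.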

Additional observations from a re-analysis of the deposited data

How the results depend on the processing

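No paired analysis was possible because each group had 1 library, and the labels number the RBFOX2 library as replicate 2 and the enzyme-only library as replicate 1. Of 125 values computed under an alternative, 15 of the main measures moved beyond their counting interval or 1.5 times their count and 50 did not; of single members' values 1 moved, 1 reversed and 58 did not. The ratio of family sites was 1.53 at the common read minimum, 1.85 for sites of at least 2 converted reads and 1.50 without SLC25A10, against 1.21. It lay between 1.17 and 1.18 with shared sites kept, without the ADP/ATP translocases or in SLC25A exons only. The sites of at least 2 converted reads numbered 74 against 40, with 15576 against 8567 in all other genes. The log2 ratio of SLC25A10 reversed to 0.79 at the common read minimum, which left 0 members called lower; the listing minimum alone sets this change. With at least 10 sites, 6 of 22 members were called higher (SLC25A4, SLC25A20, SLC25A23, SLC25A25, SLC25A32 and SLC25A46) and 2 lower (SLC25A10 and SLC25A51), beside 19.4% and 17.2% of 5594 loci, and with at least 50 sites 0 were higher. Scaling by gene reads called 2 of 12 higher (SLC25A32 and SLC25A36), and keeping shared sites 2 of 13 (SLC25A25 and SLC25A32). Counting only SLC25A exons called 2 of 11 (SLC25A32 and SLC25A36). For these settings, the limit of 50 sites and the common read minimum, the share of all loci called was not computed. The log2 ratio of the SLC25A44 locus was -1.49 (-7.56 to 1.79) in SLC25A exons only, resting on 1 site against 3. The 3′UTR shares were 61.1% and 57.3% with 3′UTR counted before coding sequence. The share with at least 2 converted reads was 6.65% and 7.02% at up to 500 reads, and the RBFOX2-library share after an A or a U was 79.7% for sites of at least 2 converted reads. The enrichment near UGCAUG in the RBFOX2 library ranged from 1.16 (200 nt) to 1.75 (20 nt). Leaving out SLC25A10, SLC25A14, SLC25A43 or SLC25A46, counting only SLC25A exons, and the common minimum for the preceding base were chosen after seeing the data. Most sites rest on 1 converted read, and members with few reads can list few sites.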
